A study of Mus musculus with 4 samples.

Results

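Lyve1 and 9 other endothelial genes were followed in the livers of obese mice after GALP, galanin-like peptide, was given through the nose. GALP is a neuropeptide of the hypothalamus that acts on feeding and body weight. The 10 genes were Lyve1, Stab1, Stab2, Clec4g, Fcgr2b, Kdr, Flt4, Pecam1, Cdh5 and Prox1. All non-control probes carrying one of these names in the scanner files were taken, which gave 21 probes of 41174 on the array and 10 of 26582 gene names. The members were selected on the GALP over control ratio of Lyve1 on these same arrays. The other genes were added as endothelial markers, not all of them particular to sinusoidal cells. Every ratio of the 10 genes is therefore given as a description without a test of the members.

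Male C57BL/6 mice, 8 weeks old when bought, were kept on a high-fat diet over 14 weeks and entered the study at 40 g or more. These diet-induced obese (DIO) mice received 2 µL of porcine GALP (1 nmol, in saline with 5% α-cyclodextrin) or of saline into the nose for 11 days while the diet went on. The labels do not name cyclodextrin for the control. RNA was pooled by outcome. The greater-loss pool came from the livers of 4 mice that lost more weight under GALP and the less-loss pool from 4 that lost less, while livers of 8 mice on saline made up the control. Either GALP pool shared 2 dual-colour Agilent arrays with the control, once in Cy5 and once in Cy3 (a dye swap), which made 4 arrays. The mice of a pool could not be seen apart, and the control was 1 sample whose own spread entered no value. Both GALP pools were set against that same control, so a deviation of the control pool appears in both.

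Each value is a log2 ratio of the GALP pool over the control pool on the same array. A log2 ratio of 0 is no difference, and a 1.5-fold higher signal is 0.58. The dye-swapped arrays of a pool hold one RNA preparation and were averaged, and a mean ± SD is over the 2 pools (n = 2). The rule of the methods called a probe when its fold was above 1.5, or below 0.75, in both pools and the scanner software gave a p-value below 0.01 with the same direction on all 4 arrays. That p-value compares the labelled extracts on 1 array and does not measure the spread between mice. An array held 43379 spots, and in any channel 40.5% to 46.7% of them were well above background. Of the 41037 probes tested, 24 were called higher (0.0585%) and 54 lower (0.132%), together 0.190%. With limma, on the 2 pools against 0, no probe had an adjusted p below 0.05 (lowest adjusted p = 0.374), and an unadjusted p below 0.05 was reached by 2049 higher and 2710 lower probes (11.6%). With 1 residual degree of freedom on the software's ratios, limma over all probes could hardly call even a large change after adjustment. With normexp background correction and loess instead, on the same 2 pools and probes, it called 42 higher and 53 lower. The absence of adjusted calls on the software's ratios therefore says nothing about any gene. For the lists below only the calls of the rule and the unadjusted counts are given. The markers of hepatocytes, among them Alb and Apoa1, were above background in all 8 channels for 10 of 10 genes, as the liver label requires.

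Liver sinusoids are lined by a thin, fenestrated endothelium without a continuous basement membrane, through which plasma reaches the hepatocytes. Its cells clear macromolecules from blood through scavenger receptors, among them the stabilins. LYVE1 is a receptor for hyaluronan, a large sugar polymer of the extracellular matrix. It is best known as a marker of lymphatic vessels, it is also carried by sinusoidal endothelial cells in the liver, and some tissue macrophages carry it too.

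The probes that bear on the comparison are given here by the first 30 of their 60 bases, 5′ to 3′ as deposited, so that the Lyve1 probes can be told apart from those of the other genes. Positions are on mm9, the build named in the scanner files. The brighter Lyve1 probe lies at chr7:117994171-117994230, from base 2497 of the transcript NM_053247. The dimmer one lies at chr7:117995668-117995726, from base 1001 of the same transcript. The Stab2 probe lies at chr10:86304198-86304257, the brighter Kdr probe at chr5:76329309-76329368, and the dimmest Prox1 probe at chr1:191977369-191984426, where its alignment spans 7058 bases and thus crosses an intron. All 5 lie on the minus strand, and exon or untranslated region was not annotated here.
Lyve1 brighter probe: cactttgtgtgcctttaacaaatacattat
Lyve1 dimmer probe: cacccaaaactacggtgcgatgcttagaag
Stab2: catttgttttaaagtatgataactcagaag
Kdr brighter probe: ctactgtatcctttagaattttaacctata
Prox1 dimmest probe: acatctcaccttattcaggaagcgcaatgc

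Lyve1 was higher in both GALP pools than in the control pool, by 1.67-fold on average, at its brighter probe. With the greater-loss pool, its processed signal was 848 for GALP against 469 for the control where GALP was labelled with Cy5, and 737 against 501 where GALP was labelled with Cy3. With the less-loss pool it was 860 against 446 with GALP in Cy5, and 702 against 461 with GALP in Cy3. The 4 GALP signals lay above the 4 control signals without overlap. They are repeats of 2 GALP pools and 1 control pool, and the share of all probes without overlap was not counted. The log2 ratios were 0.86 and 0.56 in the greater-loss pool and 0.95 and 0.61 in the less-loss pool, with GALP in Cy5 first in each pair. The pools averaged 0.71 and 0.78, and the mean was 0.74 ± 0.050 (SD, n = 2). It was the only 1 of the 21 member probes that the rule called, beside 0.190% of all probes. The same ratios chose the gene, and nothing is read from that count or from the lack of overlap.

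The dye orientation moved the Lyve1 ratio more than the pool did. The mean log2 ratio was 0.90 over the arrays with GALP in Cy5 and 0.58 over those with GALP in Cy3, whereas the pools were at 0.71 and 0.78. With GALP in Cy3, the software's p-values were 0.00829 in the greater-loss pool and 0.00471 in the other. The ratios there lay just inside the line, since a log2 ratio of 0.54 and of 0.55 was needed on these arrays to reach a p-value of 0.01. With GALP in Cy5 the p-values were 0.000101 and 2.15e-05. On the Cy3 arrays alone the lower pool was at 0.56, under the 1.5-fold line of 0.58, and the call was lost. With normexp background correction and loess in place of the processing of the software, the ratio was 0.49 (1.40-fold), with pools at 0.53 and 0.45, and the call was lost as well. The ratio stayed above 0 in each of these settings.

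The dimmer Lyve1 probe pointed the same way but lay at background. On the GALP side 1 of its 4 channels passed the background limit, and on the control side 0 of 4 did. The log2 ratios were 2.43 and 0.73 with greater weight loss and 1.77 and 0.91 with less, with GALP in Cy5 first. As the control was not well above background, these ratios are not sizes. The limit computed for the greater-loss pool was at least 1.01-fold higher. It drew on the array with GALP in Cy3, where both sides were at background, so it is not a firm limit. In the less-loss pool both sides were at background. Without the p-value rule this dimmer probe would also have been called, beside 0.375% of all probes.

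**Figure D1:**
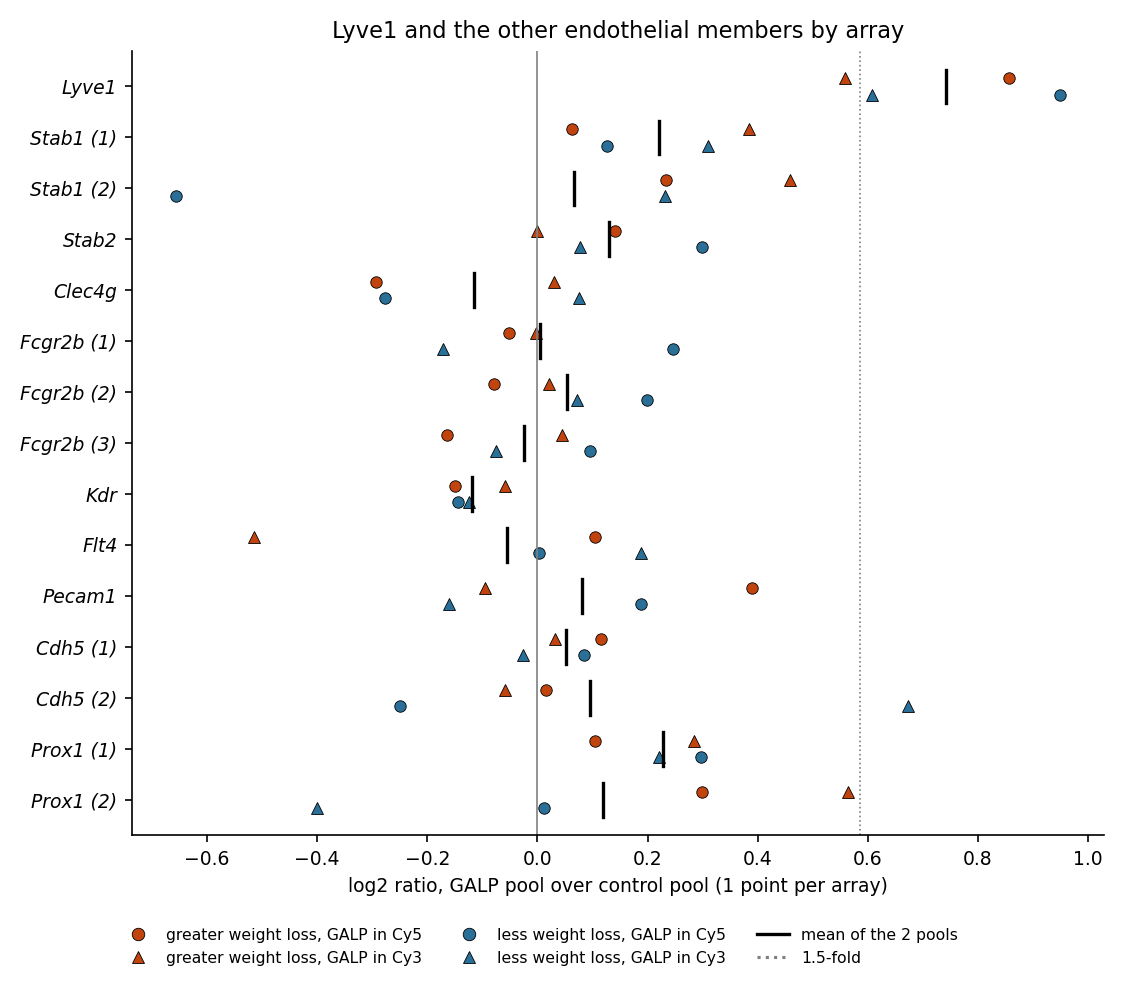
Log2 ratio of GALP over control on each of the 4 arrays (horizontal axis) for the 15 member probes measured on both sides, numbered from the brightest where a gene has several. Colours are the pools, circles and triangles the dye of the GALP extract, black bars the mean of the 2 pools and the dotted line 1.5-fold. The 4 Lyve1 points lie between 0.56 and 0.95, while the brightest probes of the other 9 genes have means between -0.12 and 0.23.

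The other 9 genes did not share a difference of that size. At the brightest probe of each gene, the mean log2 ratios ran in the order Lyve1 0.74, Prox1 0.23, Stab1 0.22, Stab2 0.13, Pecam1 0.081, Cdh5 0.052, Fcgr2b 0.0048, Flt4 -0.05, Clec4g -0.12 and Kdr -0.12. Apart from the step from Prox1 to Lyve1, neighbours in that order had array values that overlapped. For the 8 of them above background in all 8 channels, the median was 0.066 and the highest was 1.17-fold. On each array Lyve1 exceeded the highest of these 8, with 0.86 against 0.39 for Pecam1 and 0.56 against 0.38 for Stab1 in the greater-loss pool, and with 0.95 against 0.30 for Stab2 and 0.61 against 0.31 for Stab1 in the pool with less. Lyve1 minus the median of these 8 was 0.77 and 0.54 in the greater-loss and 0.79 and 0.58 in the less-loss pool. The gap to the highest of them was 0.51 on the pool means, 0.32 with normexp and loess, and 0.24 on the arrays with GALP in Cy3. Lyve1 was chosen on these same ratios, so nothing is read from its lead or from these gaps. The lead is also one of brightest probes only, as dimmer probes of Cdh5 and Prox1, given below, reached or passed Lyve1 on some arrays.

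The stabilins, large scavenger receptors of sinusoidal cells, were measured by a bright and a dim probe for Stab1 and 1 probe for Stab2. The brighter Stab1 probe had log2 ratios of 0.063 and 0.38 in the greater-loss and 0.13 and 0.31 in the less-loss pool. All 4 were above 0, the larger ones with GALP in Cy3, and the mean was 0.22 ± 0.0041 (n = 2). STAB2 takes up hyaluronan from blood. Its log2 ratios were 0.14 and -0.00048 in the greater-loss and 0.30 and 0.077 in the less-loss pool, with a mean of 0.13 ± 0.083 (n = 2). Its control signals lay between 2000 and 2198 and its GALP signals between 1999 and 2519, so that the sides overlapped. The dimmer Stab1 probe was at least 1.25-fold higher in the greater-loss pool. In the less-loss pool its arrays went apart, with -0.66 with GALP in Cy5 and 0.23 with GALP in Cy3, where both sides were at background. With GALP in Cy5 the GALP side was at background, so -0.66 is not a size. The limit computed for that pool was at least 1.07-fold lower, and it also drew on the array with both sides at background.

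Clec4g, a lectin of sinusoidal endothelial cells, and Fcgr2b, the inhibitory Fc receptor that these cells use to clear immune complexes, were bright and close to 0. Clec4g followed the dye rather than the pool. Its log2 ratios were -0.29 and -0.28 with GALP in Cy5 and 0.030 and 0.076 with GALP in Cy3, and the mean was -0.12 ± 0.022 (n = 2). The other Clec4g probes, placed on another transcript, were at background on every array. The 3 Fcgr2b probes averaged 0.0048, 0.053 and -0.025, and their arrays ranged from -0.17 to 0.25. Fcgr2b is also expressed by macrophages and B cells, which these bulk samples do not separate.

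The VEGF receptors Kdr (VEGFR2) and Flt4 (VEGFR3, the receptor of the lymphatic growth factors) did not follow Lyve1. The brighter Kdr probe, printed on 10 spots, had log2 ratios of -0.15 and -0.060 in the greater-loss and -0.14 and -0.12 in the less-loss pool. All 4 were below 0, and the mean was -0.12 ± 0.021 (n = 2), or 0.921 of the control. Its spots on 1 array had an SD between 0.058 and 0.083. The other Kdr probe was at background. Flt4 was dim, with 3 of 4 GALP channels above background, and its log2 ratios of 0.10 and -0.51 in the greater-loss and 0.0025 and 0.19 in the less-loss pool had no common direction (mean -0.05 ± 0.21, n = 2).

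The junction proteins Pecam1 (CD31) and Cdh5 (VE-cadherin), which mark endothelium of all vessels, were near 0. Pecam1, on 10 spots, had log2 ratios of 0.39 and -0.095 in the greater-loss and 0.19 and -0.16 in the less-loss pool. The positive ratios were those with GALP in Cy5, and the mean was 0.081 ± 0.095 (n = 2). The spots of Pecam1 on 1 array had an SD of 0.14 to 0.48, wider than the difference. The other Pecam1 probe was at background on both sides of every array. Cdh5 averaged 0.052 ± 0.031 (n = 2) at its brighter probe, with arrays between -0.026 and 0.12. Its dimmer probe averaged 0.095 ± 0.16 and held a single high array, 0.67 in the less-loss pool with GALP in Cy3, above the 0.61 of Lyve1 on that array. On the other 3 arrays this probe lay between -0.25 and 0.016.

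Prox1, the transcription factor that fixes lymphatic identity and is also made by hepatocytes, came second. The brightest probe had log2 ratios of 0.11 and 0.28 in the greater-loss and 0.30 and 0.22 in the less-loss pool. All 4 were above 0, with a mean of 0.23 ± 0.046 (n = 2). The 3 Prox1 probes did not go together. The second had 0.30 and 0.56 with greater but 0.012 and -0.40 with less weight loss. The dimmest, shown above by its sequence, had 1.52 and 1.02 in the greater-loss pool, where it was at least 1.29-fold higher, and was at background on both sides in the less-loss pool. A difference between the pools was not tested, as each was 1 sample.

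**Figure D2:**
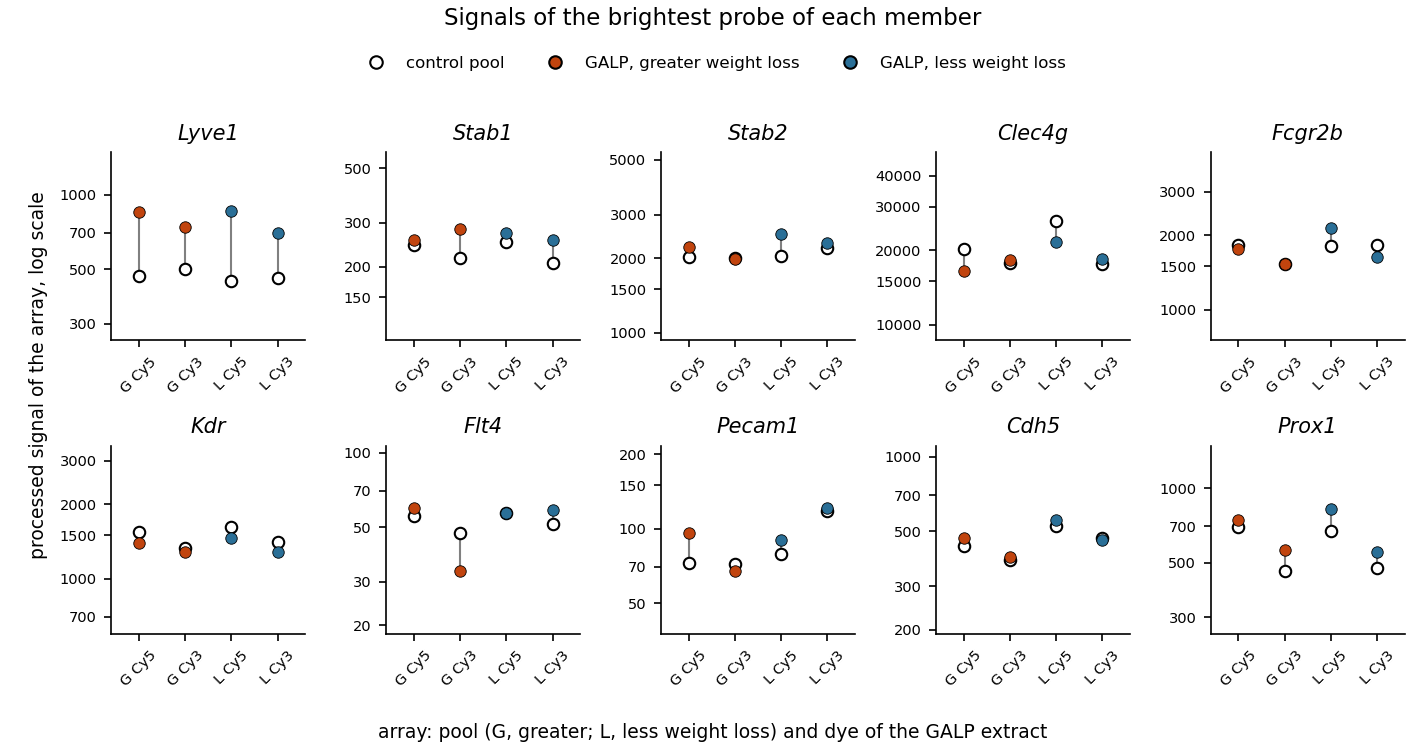
Processed signal of the brightest probe of each gene (vertical axis, log scale, the same fold range in every panel) on the 4 arrays, with the control pool as open and the GALP pool as filled circles. Signals of repeated spots are averaged, so for Pecam1 their ratio can differ from the mean log2 ratio. Filled circles stand clear above open ones on all 4 arrays for Lyve1, by 0.56 to 0.95 on the log2 scale, and lie close to them for the other genes.

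Seen against the whole array, Lyve1 lay far out and the other members did not. Among the 14444 probes above background in all 8 channels, the median log2 ratio was -0.02 and the central 90% ran from -0.33 to 0.29. Lyve1 ranked 43 from the top, so that 0.298% of these probes were at or above it. The gene was chosen on this same ratio, so nothing is read from that rank or from its distance to the other members. The 12 other member probes in this set lay between the 25.2 and 92.4 percentiles, with Kdr lowest and Prox1 highest. Stab1 and Prox1 were above 0 on all 4 arrays at their brightest probes, as were 1705 of the 14444 probes (11.8%).

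**Figure D3:**
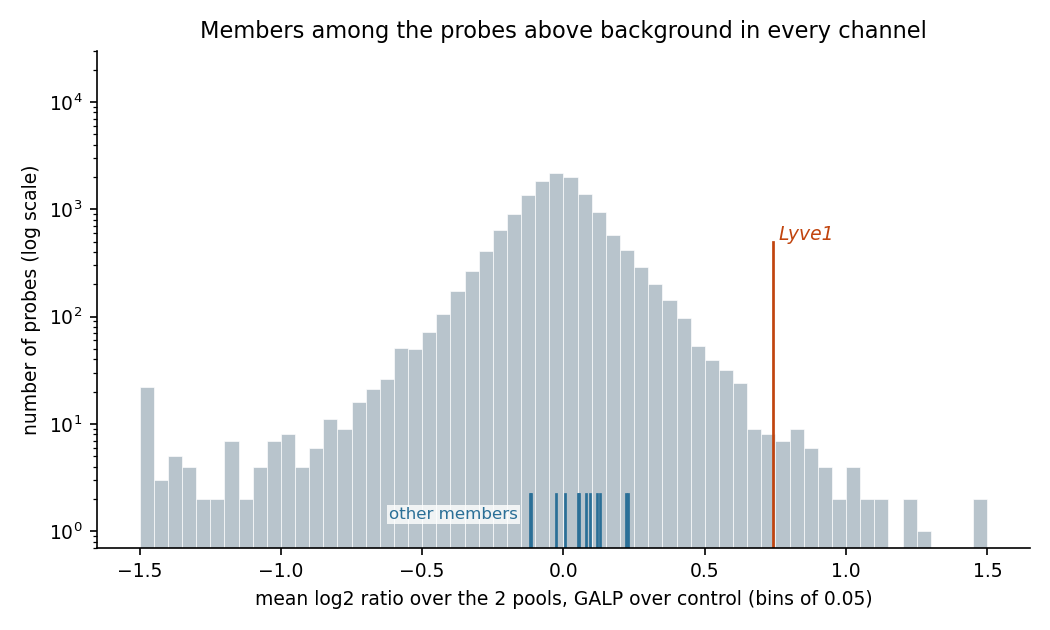
Number of probes (vertical axis, log scale) by mean log2 ratio over the 2 pools (horizontal axis, bins of 0.05) for the 14444 probes above background in all 8 channels, with the 21 probes below -1.5 and the 1 above 1.5 counted in the end bins. Vertical lines mark the members. Lyve1, which was chosen on this ratio, stands at 0.74 in the thin upper tail, and the others stand between -0.12 and 0.23 in the bulk.

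A list of 21 further genes enriched in sinusoidal endothelium gave a median log2 ratio of -0.05 over the 20 with signal. None had a called probe, and limma gave 1 higher and 0 lower at an unadjusted p below 0.05. For this list and those below, the shares over all probes in either direction were 0.190% called and 11.6% at that limma p-value. Of the 17 above background in all 8 channels, 1 was above 0 on all 4 arrays (Oit3, 0.19 ± 0.045) and 2 were below. Among all probes of that kind, 11.8% were above 0 on all 4 arrays. The largest differences were Nrp1, a VEGF co-receptor, at -0.31 ± 0.31, Tfpi, an inhibitor of tissue factor, at -0.21 ± 0.20, and Bmp2, a ligand that these cells send to hepatocytes to control hepcidin, at -0.21 ± 0.058 (n = 2 each). Nrp1 was -0.53 in the pool with greater and -0.09 in that with less weight loss.

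The general endothelial list of 32 genes had a median of 0.096, with pool medians of 0.099 and 0.10. None had a called probe, and limma gave 5 higher and 1 lower at an unadjusted p below 0.05. Of 26 above background in all channels, 7 were above 0 on all 4 arrays and 1 below, beside 11.8% above 0 among all such probes. S1pr1, the sphingosine-1-phosphate receptor of vessel walls, was lowest at -0.39 ± 0.029. Cd93, a lectin of angiogenic vessels, stood at 0.33 ± 0.16, and Sox7, a transcription factor of endothelium, at 0.30 ± 0.18 (n = 2 each). The median of this list was 0.011 on the arrays with GALP in Cy3 and 0.032 with normexp and loess.

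As LYVE1 is best known from lymphatic vessels, their other markers were taken as a list of 11 genes, of which 10 had signal. The median was 0.047, at 0.23 in the greater-loss and -0.0045 in the less-loss pool. No gene had a called probe, and limma gave 3 higher and 0 lower at an unadjusted p below 0.05. Gja4, a gap junction protein, was at 0.33 ± 0.052, Itga9, an integrin of lymphatic valves, at 0.27 ± 0.015 and Reln, the secreted glycoprotein reelin, at 0.19 ± 0.022 (n = 2 each). Of the 7 genes above background in all 8 channels, 4 were above 0 on all 4 arrays, namely these 3 and Angpt2. The 2 below 0 on all 4 arrays were Ccl21a and Nr2f2. Among all probes of that kind, 11.8% were above 0 on all 4 arrays. The lymphatic chemokine Ccl21a was at -0.14 ± 0.041, Mmrn1 at -0.28 ± 0.41, not above background in every channel, and Pdpn (podoplanin) was at background. These 3 were chosen for their place as lymphatic markers.

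Among 19 VEGF, angiopoietin and Notch genes, 16 had signal and the median was 0.082. None had a called probe, and limma gave 2 higher and 1 lower at an unadjusted p below 0.05. Hey1, a target gene of Notch signalling, was at 0.53 ± 0.15, and Notch4, the Notch receptor of endothelium, at 0.48 ± 0.085 (n = 2 each), both above 0 on all 4 arrays and each past the software's p-value on 1. Of the 14 genes above background in all 8 channels, 3 were above 0 on all 4 arrays and 2 below, beside 11.8% above 0 among all such probes. Nrp1 also belongs to this list. Hes1, a further Notch target, chosen here after its values were seen, had the highest mean of the list at 0.82 ± 0.42, but 1 of its GALP channels and 0 of its control channels passed the background limit. Of the other Notch genes of the list, Notch1 was at -0.12 ± 0.053 and Jag1 at -0.14 ± 0.21 (n = 2 each). Dll4 and Hey2 were at background. The ligands Vegfa, Vegfb and Vegfc were at -0.19 ± 0.011, -0.07 ± 0.19 and -0.06 ± 0.097 (n = 2 each).

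The genes that make, bind and degrade hyaluronan were mostly dim, and 5 of 10 had signal, with a median of 0.18. None had a called probe, and limma gave 2 higher and 0 lower at an unadjusted p below 0.05. Cd44, the other main hyaluronan receptor, carried chiefly by leukocytes, was at 0.36 ± 0.015, with 0.35 and 0.37 in the pools. The hyaluronidases Hyal2 and Hyal1 were at 0.18 ± 0.0089 and 0.071 ± 0.054 (n = 2 each). The synthases Has1, Has2 and Has3 were at background.

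Some markers of other liver cells were higher on the same arrays as Lyve1, and bulk RNA cannot tell more cells of a type from more RNA per cell. All 15 genes of the Kupffer cell and macrophage list had signal, and their median was 0.27. Their summed signal was 54414 to 67395 in the GALP channels and 44677 to 51495 in the control channels, a ratio of 1.16 to 1.31 on the 4 arrays. Of 14 above background in all channels, 9 were above 0 on all 4 arrays and 0 below, beside 11.8% above 0 among all such probes. Marco, a scavenger receptor of macrophages, was called, at 0.87 ± 0.25, with 1.05 in the greater-loss and 0.69 in the less-loss pool. The lysosomal marker Cd68 was at 0.55 ± 0.17 and the lysozyme gene Lyz2 at 0.43 ± 0.42 (n = 2 each). Of the other markers, Adgre1, Cd163, C1qb, Csf1r, Clec1b, C1qc, C1qa and Cd5l were between 0.14 and 0.43, and Timd4, Folr2, Vsig4 and Clec4f between -0.16 and -0.0013, so that markers of resident Kupffer cells stood on both sides of 0. Over the whole list, limma gave 5 higher and 0 lower at an unadjusted p below 0.05, beside 11.6% of all probes in either direction. The part of macrophages in the Lyve1 ratio was not tested.

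The stellate cell list had a median of 0.18 over 11 genes, with no called probe (by limma 3 higher and 1 lower at an unadjusted p below 0.05). Its collagens Col1a1 and Col3a1 were at 0.66 ± 0.23 and 0.45 ± 0.17 and the PDGF receptor Pdgfrb at 0.29 ± 0.036 (n = 2 each). Of its other markers, Rgs5 and Ngfr were below 0, at -0.22 ± 0.035 and -0.17 ± 0.26 (n = 2 each). Lrat, Dcn, Acta2, Colec11 and Ecm1 lay between 0.046 and 0.22, and Des was at background in all control channels. Its summed signal in GALP over control ran from 0.996 to 1.19. The part of stellate cells in the Lyve1 ratio was not tested either. The hepatocyte list had a median of 0.031 over 10 genes (0 called, 0 higher and 1 lower at an unadjusted p below 0.05), with Tat, a catabolic enzyme, at -0.38 ± 0.26, Ahsg, a plasma protein gene, at 0.20 ± 0.16 and Cps1, of the urea cycle, at 0.17 ± 0.17. The bile duct list had a median of -0.12 over 4 genes with signal (0 called, 0 at an unadjusted p below 0.05), with the keratins Krt19 and Krt7 at -0.46 ± 0.51 and -0.10 ± 0.15 and Sox9 at -0.14 ± 0.095. The blood cell list had a median of -0.095 over 7 genes (0 called, 0 higher and 2 lower at an unadjusted p below 0.05). Its B cell gene Ms4a1 was at -0.86 ± 0.19, the neutrophil gene S100a8 at 0.21 ± 0.53 and Alas2, of heme synthesis in red cells, at -0.15 ± 0.18 (n = 2 each).

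**Figure D4:**
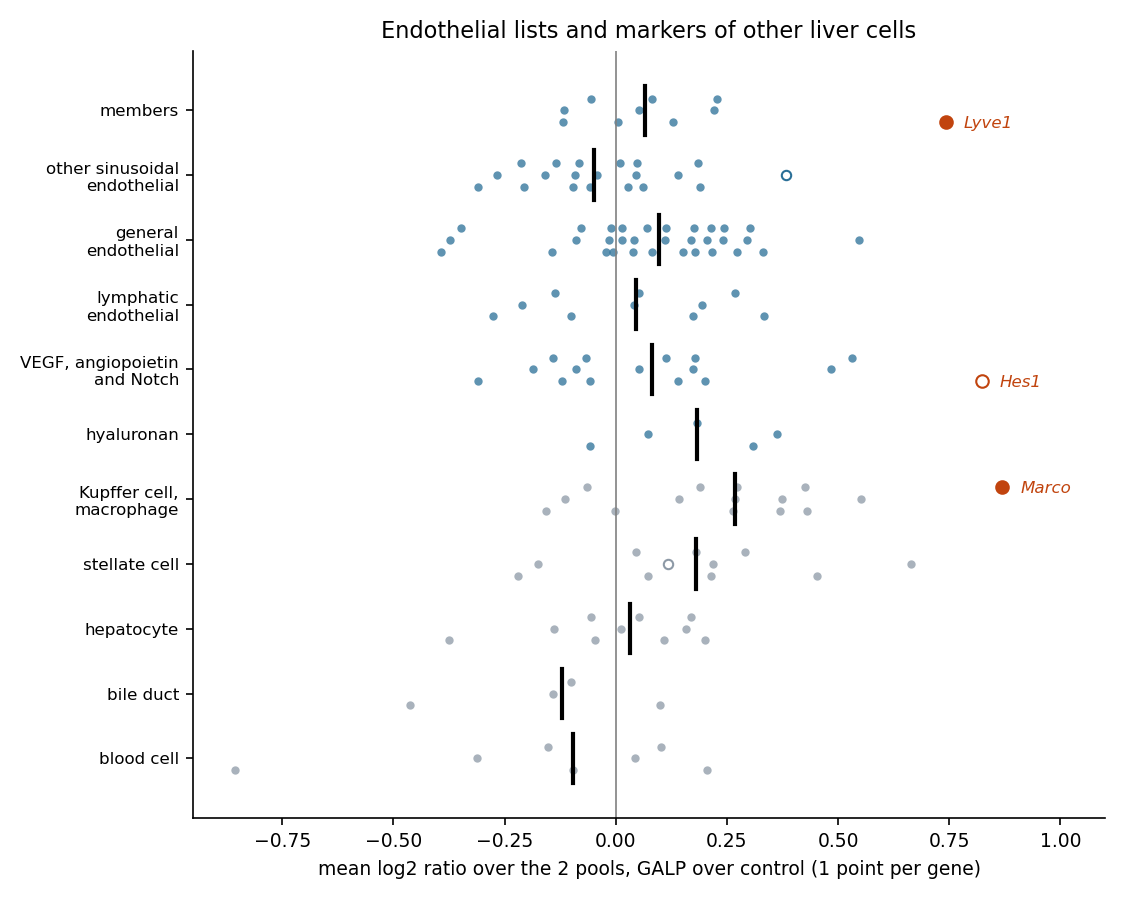
Mean log2 ratio over the 2 pools of each gene with signal (horizontal axis, 1 point per gene at its brightest probe) in the endothelial lists (blue) and the lists of other liver cells (grey), with black bars at the list medians. Lyve1 at 0.74 and Marco at 0.87 are the genes with a called probe. Open points are genes at background in all control channels (Hes1, Gata4 and Des), and the medians of the endothelial lists lie between -0.05 and 0.18.

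The 5 probes with the most similar pattern to the brighter Lyve1 probe, by Euclidean distance over the 4 arrays among probes above background in all 8 channels, were those of Cyp2a4, Sdcbp2, Fbxo31, Slc41a3 and Hamp2. Their distances from Lyve1 were 0.175, 0.200, 0.209, 0.223 and 0.237 on the log2 scale. Member probes were left out of this search, and none of the 5 genes belongs to a list above. Fbxo31, an F-box protein of ubiquitin ligases, at 0.71 ± 0.096, and Slc41a3, a magnesium transporter, at 0.84 ± 0.087, were also called. Cyp2a4, a steroid hydroxylase, was at 0.71 ± 0.12, Sdcbp2 at 0.81 ± 0.026 and Hamp2, a hepcidin gene, at 0.75 ± 0.0039 (n = 2 each). Cyp2a4 and Hamp2 have close copies in the mouse genome that a probe may not separate. The 5 were picked for closeness to Lyve1 on the 4 arrays, its dye pattern included. All 5 were accordingly higher with GALP in Cy5 than with GALP in Cy3 in both pools, and nothing is read from that. The gap was widest for Hamp2, with 0.99 against 0.52 in the greater-loss and 1.05 against 0.44 in the less-loss pool, and for Sdcbp2, with 1.04 against 0.53 and 0.98 against 0.66.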

How the data were processed

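Liver RNA of 2 pools of GALP-treated mice was compared with 1 saline pool on 4 dual-colour arrays. In the labels the control channel carries a weight loss group as well, but the study's methods have one control pool, and the control counted as 1 sample. The authors ran Feature Extraction (12.0.3.1 by the scanner headers, 11.0.1.1 in the submitters' processing notes), with background subtraction and LOWESS dye normalization, and deposited a processed intensity for either channel. Their deposited log10 ratio is of Cy5 over Cy3 and is 0 where both signals were at background (29.6% to 35.3% of spots). The deposited p-value comes from the error model of the software for 1 array. The deposited series table holds log10 ratios already turned to GALP over control (column medians -0.0396 to 0.00491) and was an alternative.

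Here ratios were put on the log2 scale with GALP as numerator. Spots with a feature outlier mark (232 to 319 per array) were left out, none was saturated, and spots of the same probe, then arrays of the same pool, were averaged. The number of arrays limits the precision. limma 3.58.1 in R 4.3.3 was fitted to the 2 pools against 0 over 41037 probes, with 1 residual degree of freedom and Benjamini-Hochberg adjustment, so p-values measure only the spread between pools. Both procedures were tested on simulated data. How many arrays must pass the p-value is not given in the methods, and all 4 were required.

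A probe not well above background on a side was given as a limit (at least N-fold) from the processed signals and the lowest signal well above background on each array. List medians used the brightest probe of each gene and left out genes at background throughout. All member probes were named, and of each other list any gene with a called probe and the 3 above background in all 8 channels with the largest differences. Genes outside this rule are said to be so or stand as markers of their list. Of the lists, Nrp1, Nrp2, Flt1, Tie1, Tek and Angpt2 belong to more than 1. The members and lists were chosen with earlier results of these data known. The alternatives were normexp (offset 50) with loess, centring, the series table, outlier marks kept, each dye orientation, each pool left out, other p-value rules, a signal filter, the mean over probes, and for limma an intensity trend and the pool as a random block. Python 3.11.15, numpy 2.4.6, pandas 2.3.3 and matplotlib 3.10.9 were used. The metabolome and the pathway analysis were not analysed here.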

Additional observations from a re-analysis of the deposited data

Results flagged for a closer look

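For 10 genes of the marker lists, both arrays of a pool lay on the other side of 0 from both arrays of the other pool, and no member probe did so. The share of all probes with such a split was not counted, so nothing is read from the number of genes. Each pool was 1 sample, and none of these differences was tested. In the order greater-loss minus less-loss pool, the difference in log2 ratio was 0.74 for S100a8, a neutrophil gene (0.58 and -0.17 in the pools), 0.32 for Apoa1, an apolipoprotein gene (0.11 and -0.22), and -0.55 for Spp1, of the bile duct list (-0.18 and 0.37). It was 0.37 for Ngfr of the stellate cell list, 0.48 for Fli1 and 0.093 for Emcn of the general endothelial list, and -0.13 for Nrp2. It was -1.37 for Procr, 0.75 for Acvrl1 and 1.31 for Des, which were not above background in every channel. Groups of 2 pools were too small for a search for outlying samples.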

How the results depend on the processing

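The mean Lyve1 log2 ratio of 0.74 was 0.49 with normexp and loess, 0.90 with GALP in Cy5 and 0.58 with GALP in Cy3, and ran from 0.71 to 0.78 with a pool left out. The count of member probes called higher, 1 at first, was 0 with normexp and loess, 0 with GALP in Cy3 and 2 with no p-value rule, ran from 1 to 1 with a pool left out, and was 0 lower in every setting. Of 112 values of the 14 other member probes under the alternatives, 22 moved by more than the SD over the pools and 13 changed sign, within -0.29 to 0.43. The cause was not tested. No paired analysis was possible because the labels carry no replicate numbers and the arrays of a pool are dye swaps of the same extracts.

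The median of the members (0.066) was 0.024 with normexp and loess, 0.075 centred, 0.099 with GALP in Cy5, 0.021 with GALP in Cy3 and 0.077 with the mean over probes, and 0.066 to 0.072 with a pool left out. That of the other sinusoidal genes (-0.05) was -0.11 with GALP in Cy3, and -0.088 to -0.013 with a pool left out. That of the general endothelial genes (0.096) was 0.032 with normexp and loess, 0.11 centred, 0.011 with GALP in Cy3 and 0.089 with the mean over probes, and 0.099 to 0.10 with a pool left out. That of the lymphatic genes (0.047) was 0.22 with GALP in Cy5, and -0.0045 to 0.23 with a pool left out. That of the VEGF, angiopoietin and Notch genes (0.082) was 0.025 with normexp and loess, 0.091 centred, 0.043 with GALP in Cy5, 0.0030 with GALP in Cy3 and 0.062 with the mean over probes, and 0.052 to 0.056 with a pool left out. That of the hyaluronan genes (0.18) was 0.12 with normexp and loess, and 0.11 to 0.19 with a pool left out.

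The rule called 9 probes higher and 26 lower with normexp and loess, 134 and 140 with GALP in Cy5, 140 and 156 with GALP in Cy3, 53 and 167 with the p-value required on at least 1 array of each pool, and 154 and 360 without it. With a pool left out, 96 to 122 were higher and 150 to 162 lower. limma called 42 higher and 53 lower with normexp and loess, 39 and 67 with the pool as a random block over the arrays, and 1 lower (Tff1) over the probes with signal. It could not be fitted with a pool left out, as 1 sample leaves no residual degree of freedom. Dim probes, such as the second Lyve1 probe, gave limits only.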
